A study of Homo sapiens with 8 samples.

Results

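The JAK-STAT pathway genes JAK1, JAK2, STAT3, STAT5A, STAT5B and STAT6, with their inhibitors SOCS1, SOCS3 and PTPN1, were followed in the Ago2-bound RNA of a Hodgkin lymphoma cell line. Every array probe whose gene name was one of these 9 symbols was taken. This gave 15 probes of the 41000 on the array. Of these, 11 probes for 8 genes were among the 17912 probes that were retained, which were those detected above background in 4 or more of the 8 channels with Cy3 and Cy5 labellings of each sample no more than 2-fold apart. The 4 other member probes, 2 for STAT3 and 2 for SOCS3, are described apart, and SOCS3 had no retained probe.

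KM-H2 is a Hodgkin lymphoma line, derived from a B-cell malignancy in which miR-155 is abundant. The cells had been transduced with a retroviral pMSCV-PIG vector that was either empty (EV) or expressed a sponge against miR-155 (miR-155-sp, called sponge cells here), whose transcript captures this miRNA on repeated binding sites, and GFP+ cells were sorted. Total RNA (T) and RNA pulled down with an antibody against Argonaute 2 (Ago2-IP) were measured from each population, so that there were 4 groups, 2 fractions of 2 populations. Each group was 1 RNA sample, labelled once with Cy3 and once with Cy5. These labellings are technical, so no test was possible, no difference has a replicate check, and the values of both labellings are given to show the technical spread.

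In the JAK-STAT pathway a cytokine receptor brings together JAK kinases, which phosphorylate STAT proteins, and these enter the nucleus as transcription factors. SOCS proteins are made in response to the signal and shut it off at the receptor and the kinase, and PTPN1 (also called PTP1B) removes phosphate from JAK2, TYK2 and STAT6. In Hodgkin lymphoma cells the pathway is known to be constitutively active, and SOCS1 and PTPN1 are recurrently mutated. SOCS1 is a known target of miR-155 in lymphocytes. The miRNA is shown because it is the one the sponge captures. Its mature sequence in RefSeq (GRCh38.p14, chr21:25573983-25574006, plus strand) has its seed, bases 2 to 8, in capitals.
hsa-miR-155-5p: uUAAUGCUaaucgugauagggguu
Whether the member probes or their transcripts hold a match to this seed was not examined here.

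The ratio IP/T, the Ago2-IP signal over the total signal of the same population, was given for each probe in 2 dye orientations, with IP in Cy5 and T in Cy3 and the reverse. Signals were quantile-normalized over the 8 channels, in arbitrary intensity units on the log2 scale. No gene spot was saturated, and between 38.8% and 61.9% of the gene spots of a channel were well above background, fewer in Cy5 than in Cy3. The Hodgkin lymphoma markers TNFRSF8, CCL17, IRF4 and MIR155HG were well above background in all 4 total RNA channels. Of the B cell markers CD79A was so, and CD79B and PAX5 were in none, while CSF1R and KRT8 of the myeloid and epithelial lists were in all 4 and none of the 3 T cell genes was. MIR155HG, the transcript from which miR-155 is made, had a mean log2 signal of 9.70 in EV and 9.87 in sponge total RNA. This does not check the sponge, which captures the mature miRNA. From their own results in this line and another Hodgkin lymphoma line, the study's authors propose that the sponge left part of the abundant miR-155 uncaptured. They also reported that miR-155 targets found in a Burkitt lymphoma line had mildly lower IP/T with the sponge in KM-H2. The 10 spike-in controls were, against the gene probes, 1.64 (log2) higher in Ago2-IP RNA of sponge cells than of EV cells, and 0.13 higher in total RNA. Member values are scaled to the full set of probes, and the part of this shift in them was not tested.

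SOCS1, the inhibitor that binds and blocks JAK kinases, had the highest Ago2 enrichment among the members, and it kept this enrichment in the sponge cells. The SOCS1 probe A_23_P420196 had log2 signals of 13.38 (Cy3) and 13.71 (Cy5) in EV total RNA and of 17.73 and 17.89 in EV Ago2-IP RNA. In sponge cells these signals were 13.25 and 13.52 in total RNA and 17.63 and 17.74 in Ago2-IP RNA. Both IP labellings thus lay far above both total labellings in each population. The mean IP/T of this probe was 19.2 in EV cells (22.8 for IP in Cy5 and 16.2 for Cy3). It was 19.6 in sponge cells (22.3 and 17.2). The difference between populations was 0.03 on the log2 scale, with -0.03 in one orientation and 0.08 in the other, so its sign was not shared. By IP/T this probe ranked 95 of 17912 in EV and 116 in sponge cells.

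The other SOCS1 probe, A_24_P48014, showed a smaller enrichment of the same direction. Its log2 signals were 9.87 (Cy3) and 10.20 (Cy5) in EV total RNA and 13.34 and 13.14 in EV Ago2-IP RNA, and in sponge cells 9.53 and 9.85 in total RNA and 13.24 and 12.97 in Ago2-IP RNA. The IP/T was 9.24 in EV cells (9.65 for IP in Cy5 and 8.85 for Cy3) and 10.68 in sponge cells (10.9 and 10.51). Its IP/T was thus 0.21 higher (log2) with the sponge, by 0.17 and 0.25 in the dye orientations. Under 7 other ways of processing this difference ran from 0.03 to 0.30. Total SOCS1 RNA was lower with the sponge by both probes and in both labellings. The log2 difference in total RNA was -0.15 for A_23_P420196 (-0.12 in Cy3 and -0.18 in Cy5) and -0.34 for A_24_P48014 (-0.34 and -0.35). A total RNA difference of the latter size or more was present in a minority of probes, since 85.3% of the retained probes differed by less. In Ago2-IP RNA the SOCS1 differences were -0.13 and -0.14 for these probes. Over 7 other ways of processing, the log2 IP/T in EV cells stayed between 4.02 and 4.51 for A_23_P420196 and between 2.94 and 3.48 for A_24_P48014, and the total RNA difference stayed below 0 for both.

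SOCS3, the inhibitor induced by STAT3 that acts at gp130 receptors, was dim in total RNA. Its probe A_23_P207058 had log2 signals of 5.13 (Cy3) and 6.03 (Cy5) in EV total RNA and of 5.23 and 6.42 in sponge total RNA. Neither of the Cy5 values was well above background. The labellings of sponge total RNA lay 2.27-fold apart, which is why the probe was not retained. In Ago2-IP RNA all labellings were well above background, with log2 signals of 8.62 and 7.97 in EV and 8.35 and 8.07 in sponge cells. Every IP labelling lay above every total labelling. The IP/T was 6.57 in EV cells (7.17 for IP in Cy5 and 6.03 for Cy3) and 5.21 in sponge cells (7.13 and 3.81). The EV value on the log2 scale, 2.72, was 1.95 with the Cy5 labellings alone, 3.49 with the Cy3 labellings alone, and 0.80 with another processing that combines normexp background correction with loess and Aquantile normalization (called normexp here). The cause was not tested. The other SOCS3 probe, A_23_P351069, was well above background in 3 channels and in neither labelling of sponge total RNA. Its log2 signals lay between 4.63 and 6.01 over the 8 channels, its groups overlapped, and the orientations in EV cells fell on opposite sides of 1 (IP/T of 2.12 and 0.871).

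**Figure D1:**
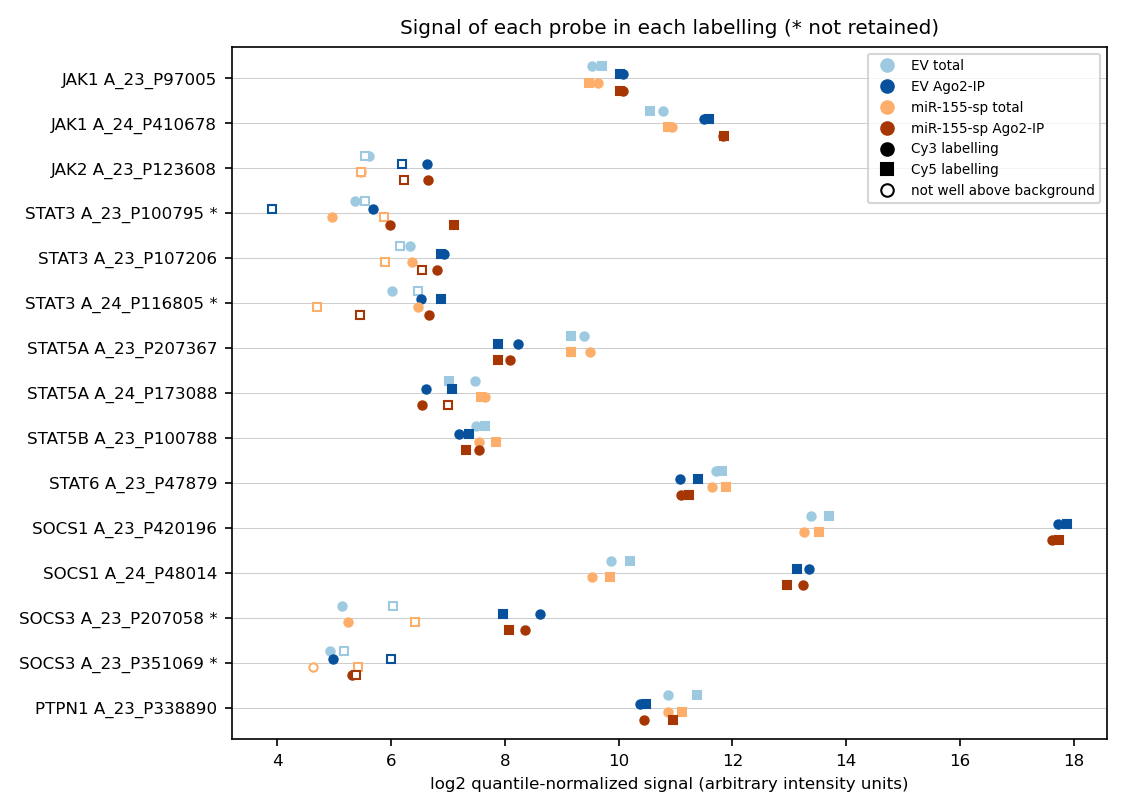
Log2 quantile-normalized signal (x axis) of the 15 member probes (y axis) in the 8 channels, with colour for the sample, circles for Cy3, squares for Cy5 and open symbols for signals not well above background. The Ago2-IP signals lie to the right of all total signals for both SOCS1 and both JAK1 probes, JAK2, SOCS3 A_23_P207058 and STAT3 A_23_P107206. They lie to the left for STAT5A A_23_P207367 and STAT6.

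The JAK kinases bind the receptor tails, and JAK1 and JAK2 had mean IP/T values between 1 and 2 in both populations. JAK1, which serves many cytokine receptors in lymphocytes, was measured by a pair of retained probes. Its probe A_24_P410678 had log2 signals of 10.77 (Cy3) and 10.56 (Cy5) in EV total RNA, 11.50 and 11.58 in EV Ago2-IP RNA, 10.95 and 10.86 in sponge total RNA and 11.83 and 11.85 in sponge Ago2-IP RNA. All 4 IP values were above all 4 total values. The IP/T of this probe was 1.84 in EV cells (1.75 and 1.93) and 1.91 in sponge cells (1.87 and 1.96). JAK1 total RNA by this probe was 0.24 higher (log2) with the sponge, by 0.17 in Cy3 and 0.31 in Cy5. The other JAK1 probe, A_23_P97005, had an IP/T of 1.36 in EV and 1.41 in sponge cells, and its total RNA differed by -0.06, with labellings on opposite sides of 0. The JAK1 probes thus did not share the total RNA difference.

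JAK2, the kinase of the IL-3, erythropoietin and interferon-gamma receptors, was read by the dim probe A_23_P123608, which was well above background in all Cy3 channels and in no Cy5 channel. Its Cy3 log2 signals were 5.62 in EV total, 6.63 in EV Ago2-IP, 5.47 in sponge total and 6.65 in sponge Ago2-IP RNA. The IP/T was 1.78 in EV cells (1.49 for IP in Cy5 and 2.12 for Cy3) and 1.95 in sponge cells (1.69 and 2.26). With normexp the log2 IP/T of JAK2 in EV cells was 0.11 in place of 0.83.

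STAT5A, which carries signals of IL-2 and related cytokines, was the member with the lowest IP/T. The STAT5A probe A_23_P207367 had log2 signals of 9.39 (Cy3) and 9.16 (Cy5) in EV total RNA and 8.23 and 7.87 in EV Ago2-IP RNA. In sponge cells it had 9.50 and 9.16 in total RNA and 8.10 and 7.89 in Ago2-IP RNA. Every IP labelling lay below every total labelling. The IP/T was 0.428 in EV cells (0.348 and 0.526) and 0.397 in sponge cells (0.328 and 0.480), a log2 difference of -0.11 (-0.09 and -0.13). With normexp the log2 IP/T of this probe in EV cells was -0.39 in place of -1.23.

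The other STAT5A probe, A_24_P173088, had log2 signals of 7.48 (Cy3) and 7.03 (Cy5) in EV total, 6.62 and 7.08 in EV Ago2-IP, 7.66 and 7.59 in sponge total and 6.54 and 7.0 in sponge Ago2-IP RNA. The sponge total values were the highest, and the IP and total values overlapped in EV cells. Its IP/T was 0.754 in EV and 0.554 in sponge cells. The log2 difference of IP/T was -0.44 (-0.25 for IP in Cy5 and -0.64 for Cy3), and that of total RNA was 0.37 (0.17 in Cy3 and 0.56 in Cy5). The lower IP/T thus went with a higher total signal, while the Ago2-IP signal differed by -0.08. The STAT5A probes differed in the size of this change, as A_23_P207367 had a total RNA difference of 0.05.

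STAT6, the factor activated by IL-4 and IL-13, had an IP/T below 1 in both populations. Its probe A_23_P47879 had log2 signals of 11.71 (Cy3) and 11.82 (Cy5) in EV total, 11.09 and 11.39 in EV Ago2-IP, 11.64 and 11.89 in sponge total and 11.10 and 11.24 in sponge Ago2-IP RNA. Every IP value lay below every total value. The IP/T was 0.695 in EV cells (0.802 and 0.602) and 0.662 in sponge cells (0.759 and 0.579). Its total RNA differed by -0.07 (log2) in Cy3 and by 0.07 in Cy5. STAT5B, the close relative of STAT5A, had an IP/T of 0.816 in EV and 0.839 in sponge cells by probe A_23_P100788, and its change had opposite signs in the dye orientations (-0.10 and 0.18). STAT5A and STAT5B are near-identical over long stretches, and probe specificity between them could not be checked here. In the RefSeq annotation of chromosome 17 these genes and STAT3 follow each other in the order STAT5B, STAT5A, STAT3.

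STAT3, the factor of the IL-6 and IL-10 receptors, had 1 retained probe of 3. The retained probe A_23_P107206 gave 1.57 as IP/T in EV cells (1.45 and 1.70) and 1.45 in sponge cells (1.13 and 1.86), and it was well above background in 5 channels. The other STAT3 probes were not retained because their labellings disagreed. A_23_P100795 gave an IP/T in sponge cells of 4.42 in one orientation and 1.08 in the other. For A_24_P116805 these values were 0.493 and 3.96. No difference in STAT3 could be given from these probes.

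PTPN1, the phosphatase of JAK2, TYK2 and STAT6, had the largest IP/T difference towards the sponge cells among the retained member probes. Its probe A_23_P338890 had log2 signals of 10.87 (Cy3) and 11.39 (Cy5) in EV total RNA and 10.39 and 10.48 in EV Ago2-IP RNA. In sponge cells these were 10.87 and 11.11 in total RNA and 10.45 and 10.96 in Ago2-IP RNA. The total values were above the IP values in EV cells, and the ranges overlapped in sponge cells. The IP/T was 0.617 in EV cells (0.763 for IP in Cy5 and 0.499 for Cy3) and 0.821 in sponge cells (1.07 and 0.630). Its log2 difference was 0.41 (0.49 and 0.33), and 83.3% of the retained probes had a smaller absolute difference. Total PTPN1 RNA differed by -0.14 (-0.01 in Cy3 and -0.27 in Cy5). The sign of the IP/T difference was the same in 7 of 7 other ways of processing, but its size ran from 0.07 with the Cy3 labellings alone to 0.76 with the Cy5 labellings alone.

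**Figure D2:**
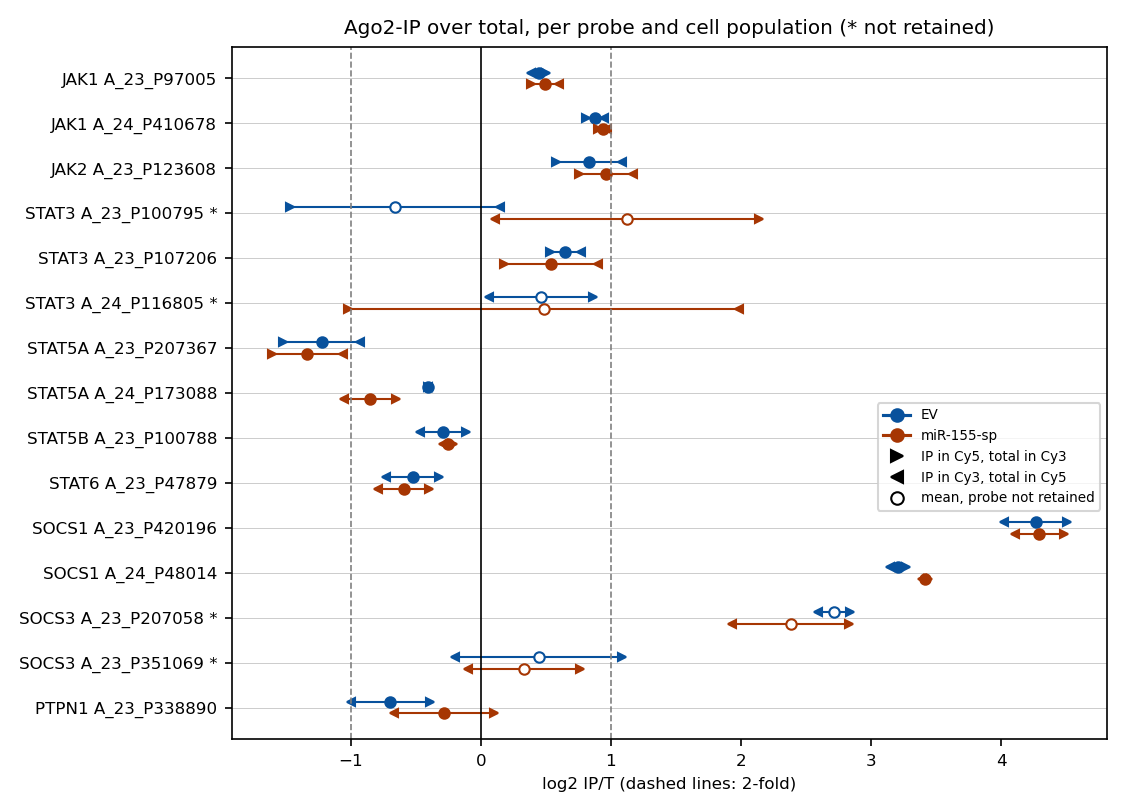
Log2 IP/T (x axis) of the 15 member probes (y axis) in EV (blue) and miR-155-sp (brown) cells, with circles for the mean, triangles for the dye orientations, open circles for probes not retained and dashed lines at 2-fold. Both SOCS1 probes lie beyond 2-fold in both populations, and STAT5A A_23_P207367 has an IP/T of 0.428 in EV cells.

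Counted over the 11 retained member probes, 2 (18.2%) had an IP/T of 2 or more in EV cells, both for SOCS1, against 14.8% of all retained probes. In sponge cells the count was again 2, the same SOCS1 probes, against 15.6% of all. An IP/T of 0.5 or less was given by STAT5A A_23_P207367 alone in each population, which is 9.09% of the member probes against 12.9% of all in EV cells and 14.1% in sponge cells. The shares of the members were thus close to the background. The median log2 IP/T of the member probes was 0.44 in EV and 0.50 in sponge cells, beside -0.24 and -0.26 over all retained probes. This median rests on few probes. The authors' deposited values hold 9 member probes for 6 genes, without the dim JAK2 and STAT3 probes retained here. Over these 9 probes the median was -0.29 in EV cells, below 0. Over all deposited probes it was -0.25.

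With the sponge, IP/T was lower in both dye orientations for 3 of the 11 member probes, both STAT5A probes and STAT6, which is 27.3% beside 30.3% of all retained probes. It was higher in both for 4 (JAK1 A_24_P410678, JAK2, SOCS1 A_24_P48014 and PTPN1), which is 36.4% beside 30.6%. None of the 11 member probes differed 2-fold or more, which is near the share of all retained probes that did (1.45%). The median absolute log2 difference was 0.11 for the members and 0.17 for all retained probes. All member means lay within the 5th to 95th percentile of all retained probes, from -0.51 to 0.53. The sign of the mean turned with at least 1 other way of processing for STAT5A A_23_P207367, STAT6 and JAK1 A_24_P410678. In total RNA, 4 member probes were lower in both labellings (JAK2, both SOCS1 probes and PTPN1), beside 32.9% of all, and 3 were higher (JAK1 A_24_P410678, STAT5A A_24_P173088 and STAT5B), beside 32.4%. With normexp the sign of the mean turned for JAK2 and STAT5B. The median log2 difference in total RNA was -0.06 for the members and 0.0001 for all, and it turned to 0.02 with equal channel medians and to 0.03 with the Cy3 labellings alone.

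**Figure D3:**
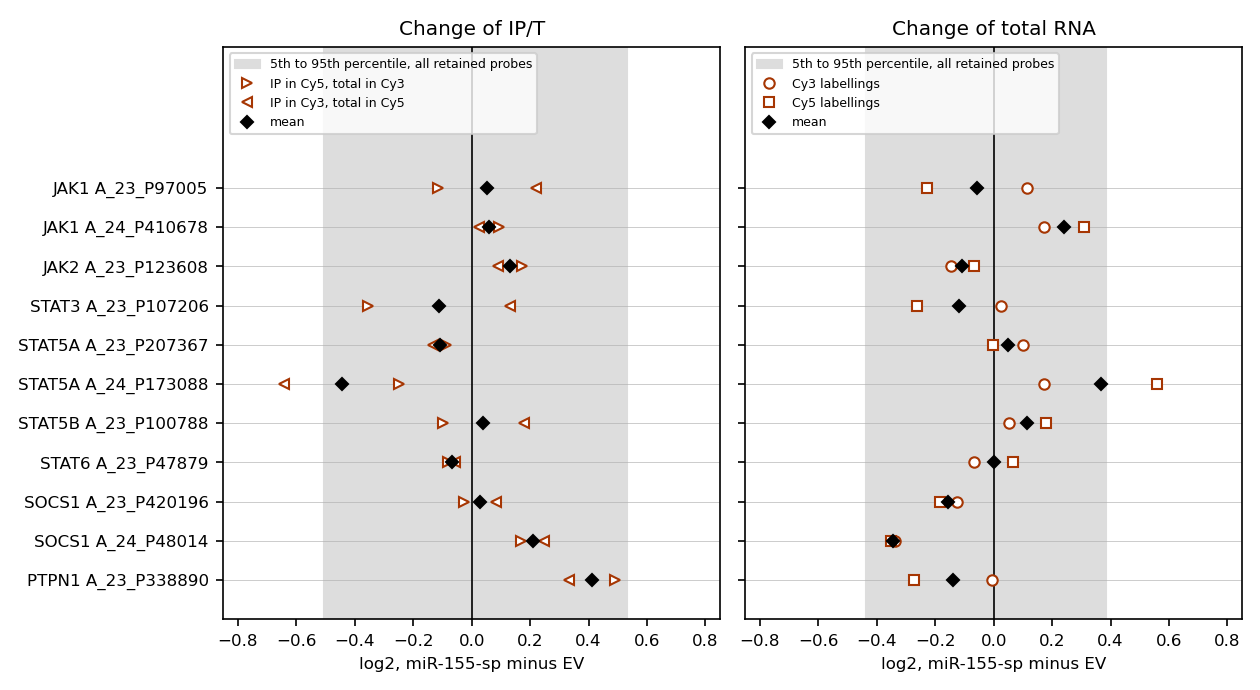
Log2 difference between miR-155-sp and EV cells (x axes) of IP/T (left) and of total RNA (right) for the 11 retained member probes (y axis), with black diamonds for the mean, open symbols for each dye orientation or labelling, and grey for the 5th to 95th percentile of all retained probes. PTPN1 (0.41) and STAT5A A_24_P173088 (-0.44) lie farthest from 0 in IP/T, and the SOCS1 probes lie below 0 in total RNA.

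The rest of the pathway was described with a list of 89 other genes, of which 86 had a probe and 45 had retained probes (65 in all). An IP/T of 2 or more in EV cells was given by 21 of the 65 probes (32.3%), beside 14.8% of all retained probes, and in sponge cells by 20 (30.8%), beside 15.6%. Values of 0.5 or less were given by 3 probes (4.62%) in EV and 2 (3.08%) in sponge cells, beside 12.9% and 14.1% of all. With the sponge, IP/T was lower in both orientations for 23 probes (35.4%, beside 30.3% of all) and higher for 19 (29.2%, beside 30.6%), and none differed 2-fold. Total RNA was lower in both labellings for 31 probes (47.7%, beside 32.9% of all) and higher for 8 (12.3%, beside 32.4%). The median log2 IP/T of the 65 probes was 0.35 in EV cells, and their median IP/T difference was -0.01.

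By role, the probes at or above 2 in EV cells stood among inhibitors, ligands, receptors and target genes. No probe of the other kinases JAK3 and TYK2 (3 probes) or of the other phosphatases (7) reached it. Nor did any of the PIAS proteins that inhibit STATs in the nucleus (5 probes). These are few probes, and 14.8% of all retained probes reached it. In sponge cells 1 PIAS and 1 phosphatase probe reached 2. PIAS4 had 1.80 in EV and 2.11 in sponge cells, and PTPN11 A_23_P105436 had 1.99 and 3.03. The SOCS family as a whole was a grouping made after the values were seen. In EV cells 6 of its 9 retained probes reached 2, from 3 genes (SOCS1, SOCS5 and CISH), beside 14.8% of all. The SOCS5 probes had IP/T values of 31.57 and 31.97 in EV and 40.2 and 33.8 in sponge cells, though their total RNA was flagged well above background in Cy3 and not in Cy5. CISH, an inhibitor induced by STAT5, had values of 2.81 and 2.32 in EV cells and of 3.30 and 1.84 in sponge cells. The SOCS2 probes had 1.23 and 1.15 in EV cells. Of the other SOCS genes, SOCS3 aside, SOCS7 had an IP/T of 1.94 in EV and 2.44 in sponge cells. SOCS4 and SOCS6 had no retained probe. As for SOCS5, total RNA of SOCS7 and of the CISH probe with 2.32 was well above background in Cy3 and not in Cy5.

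The 3 ligands with a retained probe all had an IP/T of 2 or more in EV cells: OSM at 5.30, LIF at 3.38 and IL6 at 3.16. All signal through gp130, whose gene IL6ST had an IP/T of 9.79 (log2 3.29, 6 channels well above background), chosen here after its values were seen. Of the 22 receptor probes (17 genes) 5 reached 2, from 4 genes, beside 14.8% of all retained probes. With the sponge 13 of the 22 receptor probes were lower and 3 higher in both orientations, beside 30.3% and 30.6% of all. Among 13 probes of 9 genes that STATs induce, 8 reached 2, from 5 genes, beside the same 14.8%. MYC, a growth-promoting transcription factor, had 7.17 in EV and 6.79 in sponge cells, and PIM1, a survival kinase, had 5.95 and 5.63. The lowest values in EV cells belonged to CCL17, a chemokine made by Hodgkin cells, with 0.398, and to IL13RA1, a chain of the IL-13 receptor, with 0.464 and 0.476 by different probes.

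**Figure D4:**
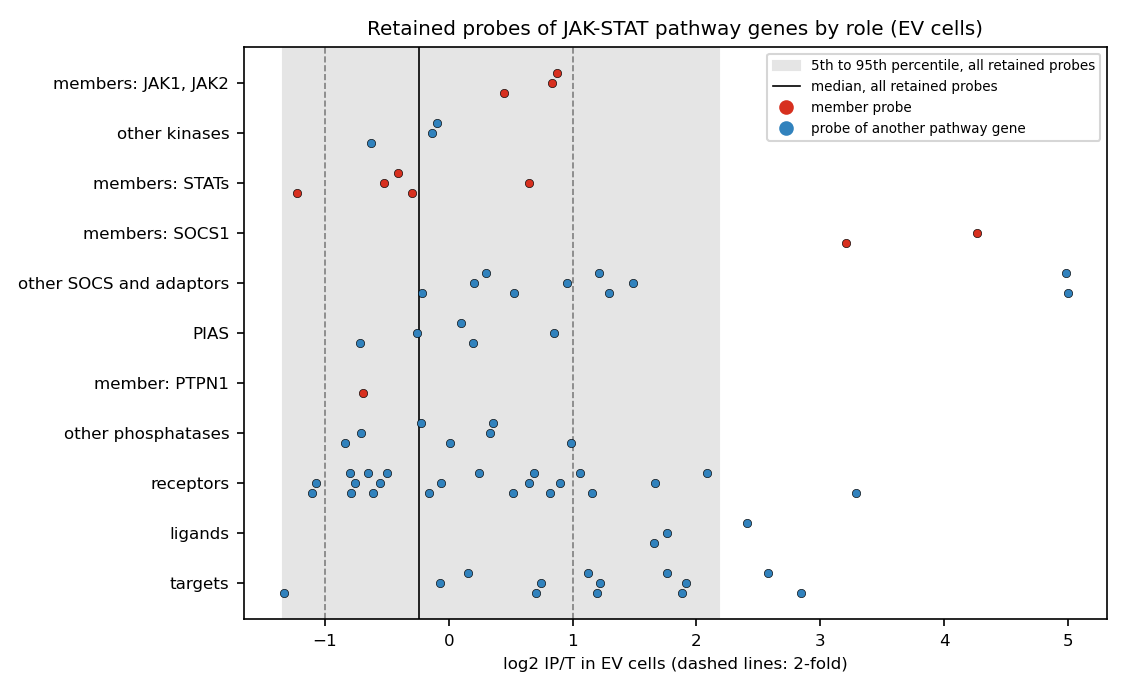
Log2 IP/T in EV cells (x axis) of the 11 member probes (red) and retained probes of other pathway genes (blue), each point a probe, by the roles shown (y axis), with the 5th to 95th percentile of all retained probes in grey and dashed lines at 2-fold. The SOCS1 and SOCS5 probes stand to the right, and the kinase, STAT, PIAS and phosphatase probes lie below 2-fold enrichment. Of all retained probes 14.8% reached 2-fold enrichment in EV cells.

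Among the other pathway genes measured in all 8 channels, the largest IP/T differences with the sponge were as follows. PTPN11, the phosphatase SHP2, was 0.60 higher (log2) by probe A_32_P61757 (0.64 and 0.57), going from 1.26 to 1.91, with a total RNA difference of -0.69. Its other 3 probes had IP/T differences of 0.61, 0.34 and 0.05 and total RNA differences of -0.26, -0.54 and -0.08. CCL17 was 0.58 higher and MCL1, an anti-apoptotic protein gene, 0.53 higher by probe A_24_P336759, but the other MCL1 probes differed by 0.27 and 0.05. In the opposite direction, CSF2RB, the shared receptor chain for GM-CSF, IL-3 and IL-5, differed by -0.61 (-0.42 and -0.80), from 2.23 to 1.46, while its total RNA differed by -0.23 in Cy3 and by 0.23 in Cy5. CBL, an adaptor that marks receptors for degradation, differed by -0.49, and the IL-10 receptor gene IL10RA by -0.45 with probe A_23_P203173, its other probes by -0.19 and 0.24.

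As a last description, the probes whose log2 values over the 8 channels ran most like those of SOCS1 A_23_P420196 and of PTPN1 were sought among 10074 probes, by Euclidean distance after each probe's mean was set to 0. For SOCS1 these were FGF2 (distance 0.183, IP/T of 18.2 in EV and 18.9 in sponge cells), KATNAL1 (0.346, 17.1 and 21.1) and PCMTD1 (0.396, 17.7 and 16.7). For PTPN1 they were CIPC (0.181, 0.606 and 0.821), COG2 (0.228) and OTULIN (0.229). The 8 channels are 4 RNAs labelled in both dyes, so likeness here is mainly likeness of IP/T.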

How the data were processed

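Agilent 2-color whole genome arrays (44k design) (4 arrays, dyes swapped) were hybridized with Ago2-IP and total RNA of KM-H2. The spot intensity values deposited by the authors came from Agilent Feature Extraction, 10.5.1.1 per the submitters' processing notes and 10.7.3.1 per the file headers, and were background-subtracted and dye-normalized within the array. The authors also deposited quantile-normalized log2 values (16065 probes), which differed from those computed here by a median of 0.000557 and served as an alternative.

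Outlier spots were dropped and spots of a probe averaged. Then, following the study's methods, log2 signals were quantile-normalized over 8 channels, probes filtered for detection (at least 4 channels) and agreement (2-fold), and labellings averaged. Probes were named through RefSeq (GRCh38.p14), for 23958 of 41000 probes. A few listed genes enter the counts but are not reported here by name. With 1 sample per group no test was run. Members, lists, thresholds and alternatives were chosen with earlier results of these data known. The genes named were every member, the 3 highest and 3 lowest IP/T values in EV cells and the 3 largest differences each way among other pathway probes well above background in 8 channels, and the 3 likest genes of SOCS1 and PTPN1. Others are said to be chosen later or complete a family or a gene's probes. Alternatives were equal channel medians, normexp (offset 50) with loess and Aquantile (limma 3.58.1, R 4.3.3), the deposited values, other filters, and single labellings or orientations. Precision is limited by the 4 arrays. The 2-fold calls of IP/T were tried on simulated data without dim probes and with falls larger than any retained member difference. That trial does not cover small differences or probes near background. Python 3.11.15, numpy 2.4.6 and pandas 2.3.3 were used.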

Additional observations from a re-analysis of the deposited data

Results flagged for a closer look

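The spike-in control spots, which no comparison used, carried a signal that differed between the populations. In Ago2-IP RNA all 10 lay higher against the gene probes in sponge than in EV cells, by a median of 1.64 on the log2 scale (1.55 to 1.78). In total RNA the difference was 0.13 (0.01 to 0.35), and for IP/T it was 1.56 (1.22 to 1.67). The member values are relative to all probes and were not rescaled by the spike-ins, and the part of this shift in them was not tested.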

How the results depend on the processing

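The count of member probes with an IP/T of 2 or more in EV cells stayed within 1.5 times under every alternative that was run, and SOCS1 A_23_P420196 and A_24_P48014 kept a log2 IP/T above 2.9 in each. The share of all probes at 2 or more, 14.8% in the main processing, was 5.99% with normexp and 10.4% without the filter on detection. With normexp 2 of 14 member probes reached it, and with the other alternatives the share lay between 12.7% and 15.7%. In sponge cells the member count was 4 of 14 probes without the filter on agreement between labellings. Shares of all probes under the alternatives were computed only for an IP/T of 2 or more in EV cells. The median log2 IP/T of the members in EV cells (0.44, beside -0.24 over all probes) was 0.585 (12 probes) with equal channel medians, beside -0.22. It was 0.0845 (14 probes) with normexp, beside -0.015, and -0.29 over the 9 deposited probes, beside -0.25. With detection in all 8 channels it was 0.0751 (8 probes), beside -0.26. A single labelling gave 0.33 to 0.56, beside -0.20 and -0.26 over all probes. The median total RNA difference (-0.06) was 0.0225 with equal channel medians, 0.0262 with IP in Cy5 and T in Cy3 only, and -0.068 to 0.0262 with a single labelling. With normexp 0 member probes had an IP/T of 0.5 or less in EV cells and 0 in sponge cells. In sponge cells 2 did so with IP in Cy3 and T in Cy5 only, and 1 to 2 with a single labelling. Of the values of single probes 337 moved by less than the standard deviation of their 2 dye orientations (labellings for total RNA) and 59 by more. Values from a single orientation, or a single labelling for total RNA, could only fall among the 337, since the main value is their mean. The 337 is thus no measure of robustness. The cause of these moves was not tested, except that filters alter which probes enter a median. No paired analysis was possible because each group was 1 RNA and no test was made. Signal near background limits JAK2, STAT3 and SOCS3.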
